A study of Mus musculus with 9 samples.

Results

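The collagen family comprised every probe of the array whose gene name was COL, a type number, A and a chain number, and whose signal exceeded the negative controls of its array (a detection value of at least 0.95) on at least 3 of 9 arrays. By name 92 probes matched and 39 of them met the detection rule. Of the matching probes, 4 were for COL4A3BP, now Cert1, the gene of a ceramide transfer protein that is not a collagen, and all 4 met the rule. They are given apart. The family described here is therefore 35 probes for 26 genes, out of 88 collagen probes for 40 genes and out of 18925 kept probes for 13001 genes in all.

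Collagens are secreted proteins of 3 alpha chains wound into a triple helix. Fibrillar collagens such as types I, III and V give tissue its tensile strength, and fibril-associated collagens sit on the surface of those fibrils. Type IV forms the network of basement membranes, type VI forms beaded microfibrils around cells, and types XV and XVIII, the multiplexins, lie in basement membrane zones. In tumours much of the fibrillar collagen is made by fibroblasts, while smooth muscle, vessel and epithelial cells also make several types.

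RNA came from gastric tumours of gp130Y575F/F mice, aged 6 to 8 weeks and of mixed 129/BL6 background. The mutation alters gp130, the signalling receptor subunit shared by the cytokines interleukin 6 (IL6) and interleukin 11 (IL11). Mice were injected once into the abdomen with 200 µl of PBS alone or with 5 µg of recombinant human IL6 or IL11 added to it, and tumours were removed after 60 min. Groups held 3 mice and 3 arrays each. All groups carried the same mutation, and no wild-type or uninjected tissue was analysed here, so the comparisons show only what the cytokines added in mutant tumours. Mice and arrays carry the numbers 1 to 3 within a group.

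Each array measured bulk tumour RNA, so fewer cells of a type and less RNA per cell cannot be told apart, and the cell that made a transcript is not known. Fibroblast and mesenchyme markers were present: 15 of 18 had a kept probe, among them Pdgfra, Pdgfrb, Thy1, Dcn and Lum, while Fap, Mfap5 and S100a4 had none. The tumours also held markers of other cells that make collagens, with 8 of 11 smooth muscle, 13 of 13 endothelial and 15 of 20 gastric epithelial markers kept. The name tumour stroma is thus met by its markers without being particular to them.

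Mean raw signal was 300.1, 360.4 and 418.7 on the PBS arrays, 602.9, 651.6 and 398.3 with IL6, and 524.1, 447.7 and 465.2 with IL11. All cytokine arrays but IL6 3 were brighter than every PBS array, so brightness before normalization went partly with treatment. On an array 37.4% to 40.6% of probes were detected. Socs3, a feedback target of gp130 signalling that checks the injections, read 12.16, 11.58 and 10.82 on the log2 scale with PBS, 13.76, 13.89 and 13.95 with IL6, and 13.36, 13.33 and 13.46 with IL11. Both cytokine groups lay above PBS on every array, with a difference of means of 2.35 with IL6 (limma adjusted p = 0.0119) and 1.86 with IL11 (adjusted p = 0.0597, which did not pass).

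The sequences before the start sites of 4 collagen genes are shown because the 3 chains of type VI varied together across the tumours and both probes of the short-chain collagen Col8a1 differed from PBS in the other direction. Each is the 250 bases before the most upstream start that the RefSeq promoter windows of GRCm38.p6 give for the gene, written 5′ to 3′ on the strand of the gene, and capitals mark a GC box (GGGCGG or its complement CCGCCC). The window of Col6a1, chr10:76726045-76726294 on the minus strand, holds none. That of Col6a2, chr10:76623631-76623880 on the minus strand, holds 1. That of Col6a3, chr1:90843972-90844221 on the minus strand, holds none, and its last 30 bases lie inside the annotated gene, whose end reaches past the start used. That of Col8a1, chr16:57754738-57754987 on the minus strand, holds 4.
Col6a1: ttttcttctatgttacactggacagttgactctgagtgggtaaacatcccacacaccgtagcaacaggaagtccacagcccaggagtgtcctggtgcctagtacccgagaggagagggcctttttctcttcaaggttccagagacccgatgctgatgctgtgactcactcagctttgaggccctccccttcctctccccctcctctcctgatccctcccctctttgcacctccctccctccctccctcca
Col6a2: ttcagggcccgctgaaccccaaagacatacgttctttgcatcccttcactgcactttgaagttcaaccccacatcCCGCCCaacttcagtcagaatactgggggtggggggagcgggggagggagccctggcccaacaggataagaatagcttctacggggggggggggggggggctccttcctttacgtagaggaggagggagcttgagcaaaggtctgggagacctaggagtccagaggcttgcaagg
Col6a3: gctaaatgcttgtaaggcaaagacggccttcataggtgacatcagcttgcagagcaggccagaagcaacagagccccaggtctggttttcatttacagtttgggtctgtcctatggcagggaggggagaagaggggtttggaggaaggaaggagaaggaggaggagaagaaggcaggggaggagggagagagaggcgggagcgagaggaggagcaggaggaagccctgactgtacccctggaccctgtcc
Col8a1: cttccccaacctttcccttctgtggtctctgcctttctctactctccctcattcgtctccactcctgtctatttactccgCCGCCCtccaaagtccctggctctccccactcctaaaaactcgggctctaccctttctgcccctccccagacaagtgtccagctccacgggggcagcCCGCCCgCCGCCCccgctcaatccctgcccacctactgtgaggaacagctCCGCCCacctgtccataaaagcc

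Motifs were searched on both strands in the 250 bases before the start. Such windows matched 22 of the 26 collagen genes. The STAT-type palindrome TTCNNNGAA stood in 1 of these 22 (4.55%), that of Col28a1, against 7.14% of 27025 windows of all genes. The window of Socs3 holds 1. GC boxes stood in 14 of 22 collagen windows (63.6%, against 33% of all), CCAAT in 9 (40.9%, against 34.5%) and TATAAA in 2 (9.09%, against 13%), those of Col3a1 and Col11a2. No STAT-type palindrome stood in the windows of Col6a1, Col6a2, Col6a3 or Col8a1. A match is a description of letters and not a site of binding.

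Across the family, no collagen probe passed the test in either comparison with PBS. In limma with Benjamini-Hochberg adjustment over all 18925 probes, 0 of 35 collagen probes passed an adjusted p of 0.05 with IL6, where 0.264% of all probes did (45 up and 5 down), and 0 of 35 with IL11, where 0.0845% did (13 up and 3 down). At these background shares fewer than 1 of 35 probes would be called in either comparison. The adjusted p of the collagens was 0.272 to 0.989 with IL6 and 0.292 to 0.978 with IL11. An unadjusted p under 0.05 was reached by 4 collagen probes of 3 genes with IL6 (11.4%, against 14.4% of all probes) and by 5 of 3 genes with IL11 (14.3%, against 13.4%), both near the background.

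The median collagen probe lay -0.20 from PBS on the log2 scale with IL6, beside -0.01 for all probes, and 24 of 35 were below PBS. With IL11 the median was -0.07, beside -0.01 for all probes, with 18 of 35 below. Single probes ranged from -0.94 to 1.22 with IL6 and from -0.99 to 1.36 with IL11. Scaling each array to its median in place of quantile normalization raised the median of all probes to 0.37 with IL6 and 0.26 with IL11, and the collagen medians to 0.14 and 0.19, so the sign of the family shift depends on the scaling. Relative to all probes, 23 collagen probes lay below the common median with IL6 in the first scaling and 27 in the second, and 18 and 20 did with IL11. The PBS arrays serve both comparisons, so similar values with IL6 and IL11 are not independent of each other.

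**Figure D1:**
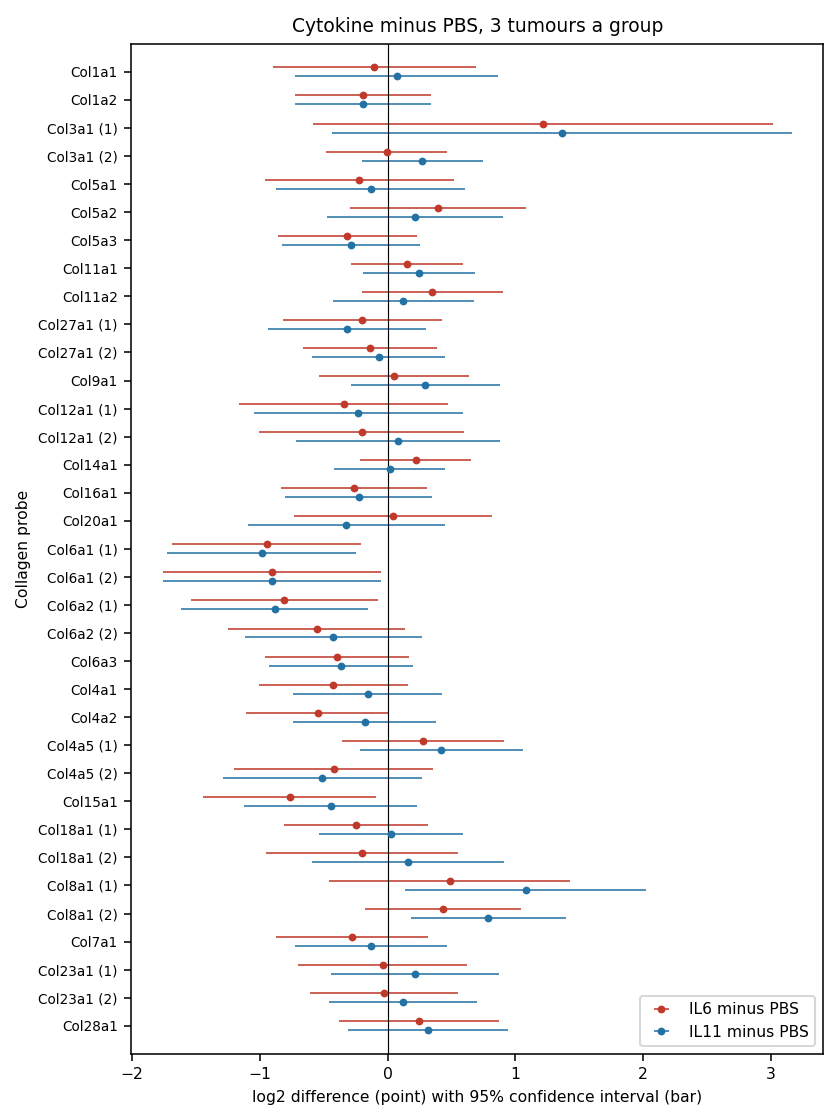
Log2 difference from PBS of each of the 35 collagen probes (points) with its 95% confidence interval (bars), with IL6 in red and IL11 in blue, ordered by structural class; numbers in brackets tell the probes of 1 gene apart. Col6a1 lies lowest, at -0.94 and -0.99, and the first Col3a1 probe highest, at 1.22 and 1.36, with the widest intervals.

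The type VI chains formed the group with the lowest values. Col6a1, Col6a2 and Col6a3 encode the 3 chains that assemble into the common type VI heterotrimer. All 5 of their probes lay below PBS with both cytokines, with a median of -0.81 with IL6 and -0.88 with IL11, and none passed after adjustment. The Col6a1 probe 7210041 read 10.26, 10.92 and 10.89 on the PBS arrays, 9.72, 9.98 and 9.53 with IL6, and 10.36, 9.01 and 9.74 with IL11. Every IL6 array was below every PBS array, while IL11 1 lay within the PBS range. Its difference was -0.94 ± 0.33 (SE, n = 3; 95% interval -1.68 to -0.21; adjusted p = 0.272) with IL6 and -0.99 ± 0.33 (-1.72 to -0.25; adjusted p = 0.292) with IL11.

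The second Col6a1 probe, 3170280, had 9.57, 10.61 and 10.37 with PBS, 9.25, 9.38 and 9.20 with IL6, and 10.13, 8.58 and 9.13 with IL11. It too was highest on PBS 2 and lowest on IL11 2, and differed from PBS by -0.91 and -0.90 (adjusted p = 0.324 and 0.355). The Col6a2 probe 1440189 read 7.46, 8.47 and 8.05 with PBS, 7.11, 7.44 and 7.01 with IL6, and 7.73, 6.61 and 6.99 with IL11. Here too the IL6 arrays stood below all PBS arrays, but narrowly, with 7.44 against 7.46 at the nearest. The difference of means was -0.81 ± 0.33 (SE, n = 3; adjusted p = 0.311). With IL11, IL11 1 overlapped PBS, and the difference was -0.88 ± 0.33 (adjusted p = 0.323). The dimmer Col6a2 probe 5670184 read 5.11, 6.37 and 5.98 with PBS, 5.29, 5.06 and 5.44 with IL6, and 5.69, 5.05 and 5.44 with IL11. Its groups overlapped in both comparisons, at -0.56 and -0.42 (adjusted p = 0.416 and 0.546).

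Col6a3, which encodes the largest type VI chain, had 10.65, 11.19 and 10.59 with PBS, 10.49, 10.47 and 10.28 with IL6, and 10.92, 10.04 and 10.38 with IL11. The IL6 arrays were again below all PBS arrays, with a smaller difference of means, at -0.40 ± 0.25 (SE, n = 3; adjusted p = 0.472), and the IL11 difference was -0.36 (adjusted p = 0.523). Without PBS 2 and PBS 3 the Col6a1 probe 7210041 lay -0.51 and -0.55 from PBS 1, the Col6a2 probe 1440189 -0.28 and -0.35, and the dim Col6a2 probe turned to 0.15 and 0.28. With median scaling Col6a3 turned to 0.10 with IL6, while Col6a1 and Col6a2 stayed below PBS, at -0.43 and -0.30 for their brighter probes. Under that scaling the median of all probes with IL6 was 0.37, above the value of Col6a3.

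Over the family, 5 probes lay with all IL6 arrays below all PBS arrays (14.3%, against 8.32% of all probes): both Col6a1 probes, Col6a2 1440189, Col6a3 and Col4a2. In the other direction 1 did, the near-background Col14a1 (2.86%, against 8.46%). With IL11, 0 probes lay wholly below PBS (against 10% of all probes) and 2 wholly above it (5.71%, against 8.74%), both of them Col8a1.

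**Figure D2:**
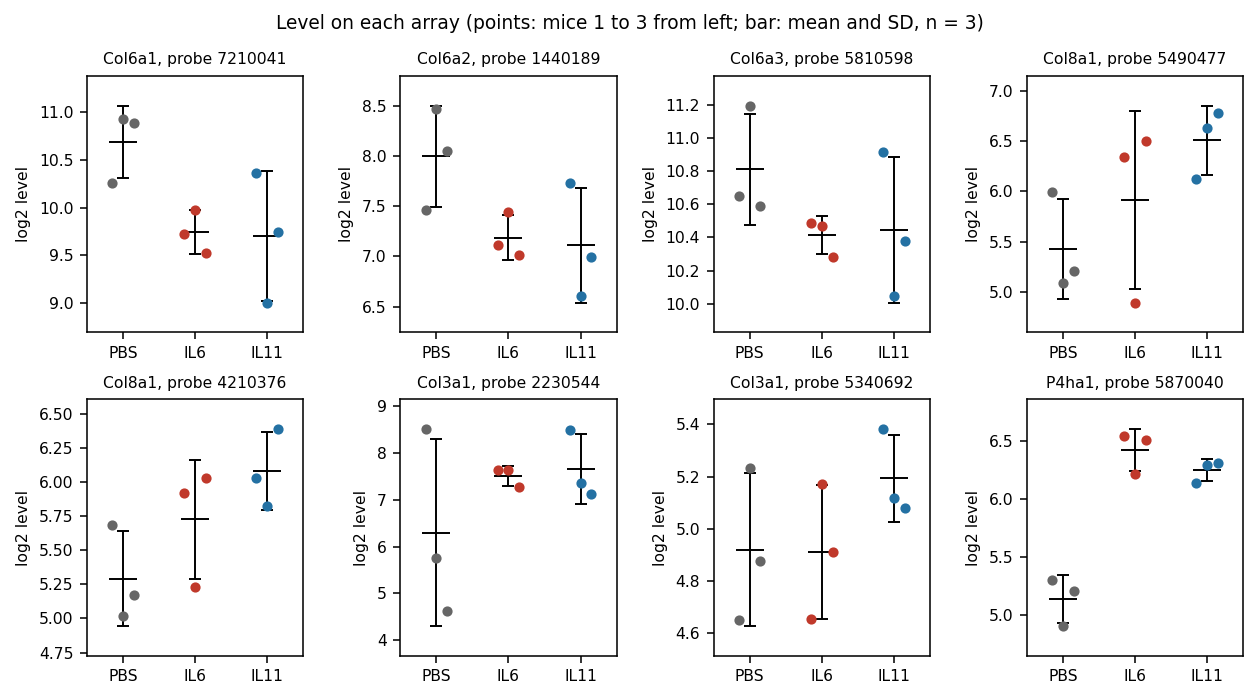
Log2 level of 7 collagen probes and of the P4ha1 probe on each array (points, mice 1 to 3 from left) with the group mean and SD (bars, n = 3); each panel has its own axis. The IL6 points of Col6a1, Col6a2 and Col6a3 lie below all PBS points, those of Col8a1 with IL11 lie above them, and the first Col3a1 probe spans 4.63 to 8.52 among the PBS arrays.

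Markers of several stromal cells were measured beside type VI. Averaged over its 4 probes detected on all arrays, relative to their own means, type VI stood at 0.08, 0.90 and 0.57 on the PBS arrays, -0.26, -0.09 and -0.40 with IL6, and 0.38, -0.84 and -0.34 with IL11. The 15 fibroblast markers averaged 7.93, 8.48 and 8.31 with PBS, 7.71 to 7.90 with IL6 and 8.12, 7.60 and 8.04 with IL11. The 8 smooth muscle markers averaged 8.53, 9.40 and 9.74 with PBS, 8.22 to 8.50 with IL6 and 9.04, 8.35 and 9.25 with IL11. Macrophage markers, 10 of 13 kept, averaged 7.96, 8.63 and 8.46 with PBS, 7.35 to 7.88 with IL6 and 7.74, 6.97 and 7.54 with IL11. PBS 2 and PBS 3 were above PBS 1 in all of these lists, and IL11 2 was the lowest IL11 array in each, as in type VI. The order was not shared throughout: smooth muscle markers were higher on IL11 3 than on IL11 1 and PBS 1, while type VI was lower there than on both. Endothelial markers, 13 of 13 kept, averaged 8.26 to 8.58 with PBS, 7.98 to 8.21 with IL6 and 8.19 to 8.41 with IL11. With IL6, 11 of 15 smooth muscle and 7 of 22 fibroblast probes had an unadjusted limma p under 0.05. So did 7 of 17 endothelial and 6 of 12 macrophage probes, against 14.4% of all probes. With IL11 these counts were 1, 4, 5 and 8, against 13.4%. No marker of these lists passed the test (lowest limma adjusted p = 0.0695), and their part in the type VI values was not tested.

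The fibrillar collagens, 11 probes of 9 genes, showed no common direction. Their median lay -0.10 from PBS with IL6, with 7 of 11 below, and 0.07 with IL11, with 5 of 11 below, and none passed. Col1a1 and Col1a2 encode the chains of type I, the main collagen of connective tissue. Col1a1 read 8.26, 8.33 and 8.86 with PBS, 8.67, 8.07 and 8.40 with IL6, and 9.12, 7.68 and 8.86 with IL11. The groups overlapped, and the difference was -0.10 ± 0.36 with IL6 (95% interval -0.90 to 0.69) and 0.07 ± 0.36 with IL11 (-0.73 to 0.87; SE, n = 3), with adjusted p of 0.910 and 0.942. Col1a2 read 6.22, 6.29 and 5.80 with PBS, 5.49, 5.98 and 6.26 with IL6, and 6.01, 5.67 and 6.07 with IL11, and lay -0.20 and -0.19 from PBS (adjusted p = 0.718 and 0.736). These intervals leave room for changes of either sign in Col1a1.

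Col3a1, the type III chain that accompanies type I in soft organs, had the largest positive differences of the family, with the widest spread. Its probe 2230544 read 8.52, 5.75 and 4.63 with PBS, 7.63, 7.64 and 7.27 with IL6, and 8.50, 7.36 and 7.12 with IL11. PBS 1 was the highest of all 9 arrays and PBS 3 the lowest. The difference was 1.22 ± 0.80 (SE, n = 3; adjusted p = 0.487) with IL6 and 1.36 ± 0.80 (adjusted p = 0.464) with IL11. Without PBS 1 it passed in both comparisons, at 2.33 (adjusted p = 0.0324) and 2.47 (adjusted p = 0.0336), and without PBS 2 and PBS 3 it turned to -1.0 and -0.85, so its sign rests on PBS 2 and PBS 3. The second Col3a1 probe, 5340692, read 4.65, 5.23 and 4.88 with PBS, 4.66, 5.17 and 4.91 with IL6, and 5.38, 5.12 and 5.08 with IL11, near background throughout, and gave -0.01 and 0.27 (adjusted p = 0.989 and 0.567). The 2 probes did not vary alike, and the files do not say which part of the transcript each one reads.

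Type V collagen regulates fibril diameter. Its chain gene Col5a1 read 9.78, 10.17 and 9.54 with PBS, 9.57, 9.21 and 10.05 with IL6, and 10.20, 9.01 and 9.88 with IL11, with differences of -0.22 and -0.13 (adjusted p = 0.778 and 0.875). Col5a2, detected on no PBS array, read 4.80, 4.99 and 5.92 with IL6 and 5.45, 4.65 and 5.09 with IL11, against 5.03, 4.86 and 4.66 measured with PBS. It was detected on 1 IL6 array and 2 IL11 arrays, and its raised IL6 mean rests on IL6 3. With PBS raised to the lowest detected level, the Col5a2 fold was 1.07 with IL6 and 0.94 with IL11. Undetected cytokine arrays entered as measured, so these folds are no strict lower bounds. The remaining fibrillar genes, Col5a3, Col11a1, Col11a2 and Col27a1, lay between -0.32 and 0.35 with both cytokines.

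**Figure D3:**
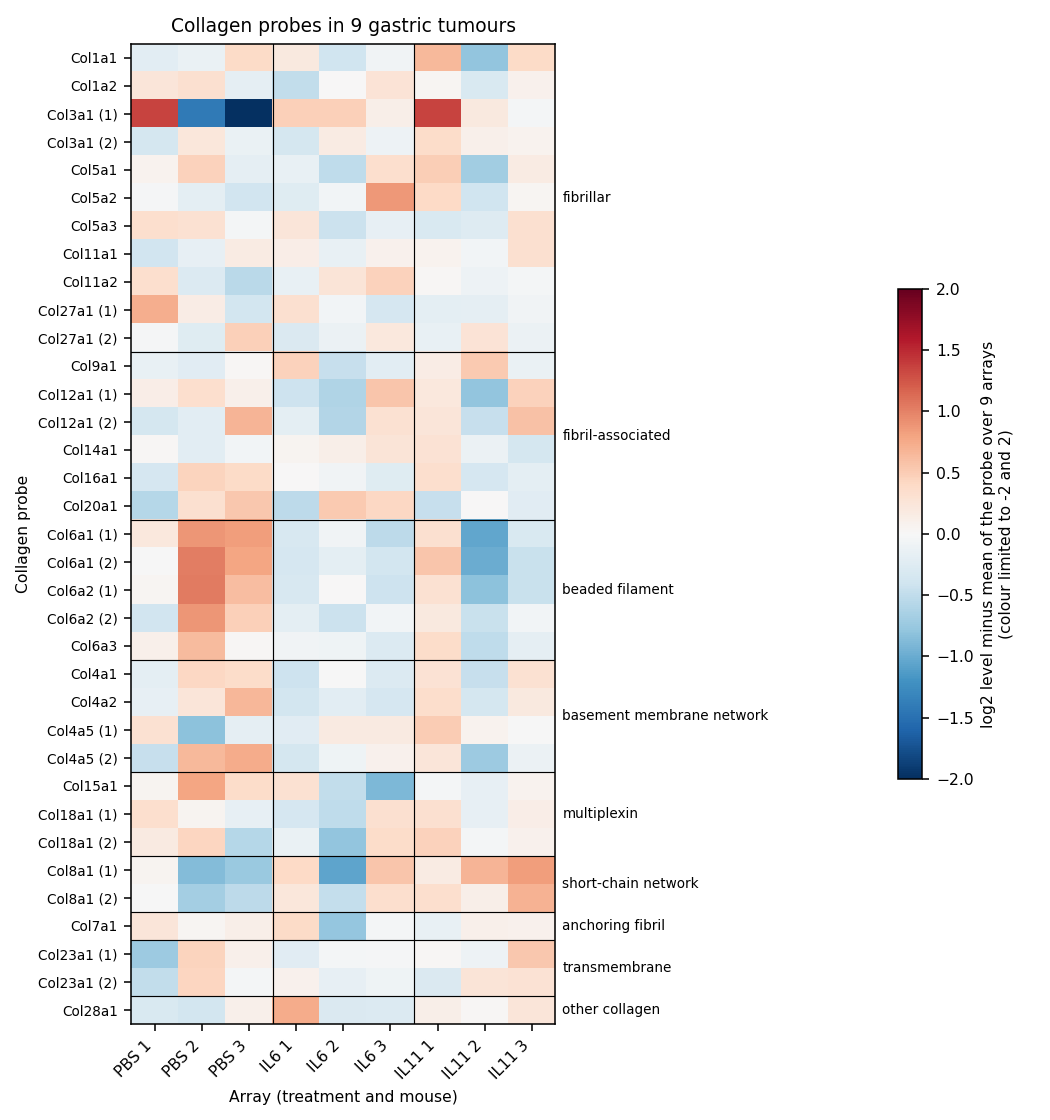
Log2 level of each of the 35 collagen probes (rows, grouped by structural class, numbers in brackets for probes of 1 gene) minus its mean over the 9 arrays (columns), with red above and blue below the mean and colours limited to -2 and 2. PBS 2 is red and IL11 2 blue across the beaded filament chains of type VI. PBS 3 is red in these chains except Col6a3, where it lies close to the mean. The first Col3a1 probe ranges most.

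Fibril-associated collagens, 6 probes of 5 genes, lay at a median of -0.08 with IL6 and -0.11 with IL11, with 3 of 6 below PBS in each. Col12a1 and Col14a1 encode homotrimeric collagens on the surface of type I fibrils. The Col12a1 probe 3870360 read 7.64, 7.85 and 7.61 with PBS, 7.09, 6.91 and 8.05 with IL6, and 7.71, 6.72 and 7.97 with IL11. The spread within each cytokine group exceeded its distance from PBS, at -0.34 ± 0.37 and -0.23 ± 0.37 (SE, n = 3; adjusted p = 0.674 and 0.796). Its second probe, 5270673, read 5.77, 5.90 and 6.79 with PBS, 5.91, 5.53 and 6.42 with IL6, and 6.35, 5.65 and 6.70 with IL11, and gave -0.20 and 0.08. Both Col12a1 probes were lowest with IL6 2 or IL11 2.

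Col14a1 lay near background and was detected on no PBS array. It read 5.07, 4.82 and 4.98 with PBS, 5.09, 5.15 and 5.29 with IL6, and 5.32, 4.92 and 4.68 with IL11. Values this near background have no firm order, and the IL6 difference did not pass (adjusted p = 0.604). With PBS raised to the lowest detected level, the Col14a1 fold was 1.02 with IL6 and 0.89 with IL11. Both cytokine groups held undetected arrays, so these folds are no strict lower bounds. Col20a1 read 6.67, 7.55 and 7.77 with PBS, 6.71, 7.76 and 7.66 with IL6, and 6.78, 7.24 and 7.01 with IL11, with mouse 1 the lowest of each group. Col16a1 lay -0.26 and -0.23, Col20a1 0.04 and -0.32, and Col9a1 0.05 and 0.30 from PBS with IL6 and IL11, all with adjusted p over 0.6.

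Of the type IV chains of the basement membrane, Col4a1 and Col4a2 had lower means with IL6 than with PBS and did not pass the test. Col4a1 and Col4a2 are neighbouring genes read from a shared promoter region on opposite strands, and their products combine as 2 chains of the first with 1 of the second. Col4a1 read 10.82, 11.43 and 11.39 with PBS, 10.61, 11.01 and 10.75 with IL6, and 11.30, 10.55 and 11.32 with IL11. Col4a2 read 10.37, 10.78 and 11.20 with PBS, 10.17, 10.32 and 10.21 with IL6, and 10.89, 10.19 and 10.74 with IL11. The IL6 arrays of Col4a2 lay narrowly below all PBS arrays, with 10.32 against 10.37 at the nearest, and those of Col4a1 did not. In both genes IL11 2 stood well below the other IL11 arrays. The IL6 differences were -0.42 ± 0.26 for Col4a1 (adjusted p = 0.456) and -0.55 ± 0.25 for Col4a2 (SE, n = 3; adjusted p = 0.350), and those with IL11 were -0.16 and -0.18. With median scaling Col4a1 turned to 0.06 with IL6, and both genes to 0.19 with IL11. The medians of all probes were then 0.37 with IL6 and 0.26 with IL11. Across the alternatives the IL6 difference of Col4a2 was -0.75 to -0.04.

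The probes of Col4a5, a chain of specialised basement membranes, opposed each other. Probe 6250463 lay 0.28 and 0.42 above PBS with IL6 and IL11, while probe 6620563 gave -0.42 and -0.51. The first was lowest on PBS 2, at 7.61, and the second lowest on IL11 2, at 6.17. No direction can be given for the gene. Of the 9 genes with several kept probes, 2 had probes of opposite sign with IL6 (Col3a1 and Col4a5) and 2 with IL11 (Col12a1 and Col4a5).

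The multiplexins Col15a1 and Col18a1, whose cleaved ends include endostatin, were measured by 3 probes. Col15a1 read 7.88, 8.60 and 8.18 with PBS, 8.13, 7.32 and 6.92 with IL6, and 7.78, 7.66 and 7.89 with IL11. IL6 2 and IL6 3 stood below all PBS arrays and IL6 1 among them, for a difference of -0.77 ± 0.30 (SE, n = 3; 95% interval -1.44 to -0.09; adjusted p = 0.305), and IL11 gave -0.45 ± 0.30 (adjusted p = 0.516). The Col18a1 probe 5690270 read 13.17, 12.89 and 12.66 with PBS, 12.50, 12.32 and 13.15 with IL6, and 13.15, 12.67 and 12.97 with IL11. IL6 1 and IL6 2 stood below all PBS arrays and IL6 3 among them, while all IL11 arrays lay within the PBS range. The differences were -0.25 and 0.03. The second probe, 3450066, read 8.84, 9.07 and 8.08 with PBS, 8.52, 7.85 and 9.02 with IL6, and 9.12, 8.61 and 8.74 with IL11. It gave -0.20 and 0.16.

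Col8a1 was the one gene whose IL11 arrays all lay above PBS. It encodes a short-chain collagen of vessel walls and other subendothelial matrix. Probe 5490477 read 6.00, 5.08 and 5.20 with PBS, 6.34, 4.89 and 6.51 with IL6, and 6.12, 6.63 and 6.78 with IL11, and probe 4210376 read 5.69, 5.02 and 5.17, then 5.92, 5.23 and 6.03, then 6.03, 5.82 and 6.39. PBS 1 and IL11 1 lay close together in the first probe, and IL6 2 was no higher than PBS 1 in either. The IL11 differences were 1.08 ± 0.42 (95% interval 0.14 to 2.03; adjusted p = 0.335) and 0.79 ± 0.27 (0.18 to 1.40; SE, n = 3; adjusted p = 0.302), and those with IL6 0.48 and 0.43 (adjusted p = 0.602 and 0.467). Without PBS 2 and PBS 3 the IL11 values were 0.51 and 0.40, and the IL6 values -0.09 and 0.04.

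Col7a1, the anchoring fibril collagen that ties epithelia to the matrix below, read 6.21, 6.00 and 6.07 with PBS, 6.34, 5.19 and 5.91 with IL6, and 5.80, 6.05 and 6.04 with IL11. Its PBS and IL11 values lay between 5.80 and 6.21, and IL6 2 stood below them, for differences of -0.28 ± 0.27 and -0.13 ± 0.27 (SE, n = 3; adjusted p = 0.635 and 0.850). The transmembrane collagen Col23a1 gave -0.04 and 0.22 by one probe and -0.03 and 0.12 by the other. Col28a1 gave 0.25 and 0.32, of which the IL6 value rests on IL6 1 at 5.78, against 4.76 on both other IL6 arrays. The 4 Cert1 probes, which are no collagen, lay between -0.15 and 0.28 with both cytokines and none passed.

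Col17a1, a transmembrane collagen of the hemidesmosomes of squamous epithelium, did not meet the detection rule, since its 3 probes were detected on PBS 3 and IL11 3 only. Raw signals were 483.2, 546.7 and 239.6 on PBS 3 and 132.1, 174.4 and 111.6 on IL11 3, against 81.8 to 131.1 on the other arrays. The 9 kept markers of squamous forestomach of 16 averaged 9.17 on PBS 3 and 8.38 on IL11 3, and 7.45 to 7.93 on the other 7 arrays. Krt14, Krt15 and Krt13 were among the kept markers, while Krt5 and Trp63 had no kept probe. Col17a1 thus stood out on the same arrays as these markers, and was measured too rarely to be compared between groups. Without PBS 3 and IL11 3 the collagen medians were -0.15 with IL6 and -0.07 with IL11, and 0 collagen probes passed.

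**Figure D4:**
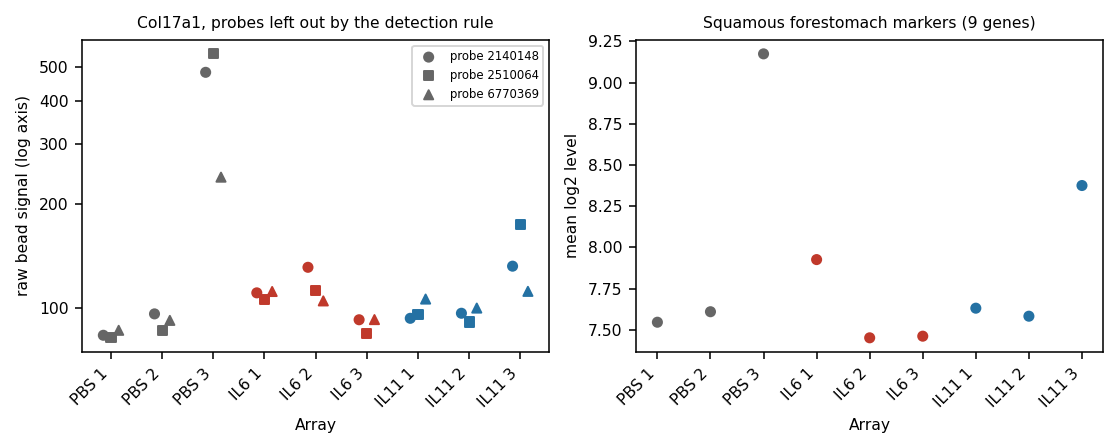
Left, raw bead signal of the 3 Col17a1 probes on each array, on a log axis; right, mean log2 level of the 9 squamous forestomach markers; grey is PBS, red IL6 and blue IL11. PBS 3 is highest in both panels and IL11 3 next, by little for 2 of the 3 probes.

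The other 13 collagen genes without a kept probe were Col2a1, Col4a3, Col4a4, Col4a6, Col8a2, Col9a2, Col9a3, Col10a1, Col13a1, Col19a1, Col22a1, Col24a1 and Col25a1. Cartilage collagens (Col2a1, Col9a2, Col9a3, Col10a1) and the glomerular type IV chains (Col4a3, Col4a4) are among them. Of the 53 collagen probes that were not kept, 39 were detected on no array, 6 on 1 and 8 on 2. The 3 kept probes detected on exactly 3 arrays had a median raw signal of 108.3, beside 104.8 for the 8 detected on exactly 2, so the rule separates probes of nearly the same signal. Among kept probes 20, for 16 genes, were detected on all 9 arrays, and 0 were detected in 1 group alone.

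Collagen levels also differed between mice of 1 group. The median SD of a collagen probe was 0.37 with PBS, 0.30 with IL6 and 0.33 with IL11, beside 0.34, 0.22 and 0.19 for all probes. Averaged over the 20 collagen probes detected on all arrays, the deviation from each probe's own mean was -0.06, 0.37 and 0.27 on the PBS arrays, -0.20, -0.24 and -0.03 with IL6, and 0.25, -0.43 and 0.06 with IL11. IL11 2 was the lowest array for 9 of these 20 probes and PBS 2 the highest for 8. The lowest and the highest IL11 arrays thus lay further apart than any group means.

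Chains that assemble into 1 trimer were compared across the 9 tumours, for 5 pairs chosen with earlier results of these data known. Col6a1 and Col6a2, neighbouring genes on 1 strand, correlated with Pearson r = 0.97 (exact permutation p = 1.1e-05, adjusted 5.51e-05; n = 9) and Spearman rho = 0.95 (exact permutation p = 0.000353, adjusted 0.00176). After removal of PBS 2 and IL11 2, the farthest from the median, r was 0.97, and within groups it was 0.94. Of 14091 probes detected on all arrays, 0.0071% had a higher r with Col6a1. The second Col6a1 probe was among the 14091. Col6a1 with Col6a3, which lies on another chromosome, gave r = 0.86 (exact permutation p = 0.00326, adjusted 0.00408) and rho = 0.90 (p = 0.00203, adjusted 0.00338), with 0.66 after the same removal and 0.81 within groups, and 1.06% of probes had a higher r with Col6a1. Col6a2 with Col6a3 gave r = 0.90 (exact permutation p = 0.000962, adjusted 0.0024) and rho = 0.92 (p = 0.00131, adjusted 0.00328), with 0.69 after removal and 0.88 within groups, and 0.532% of probes had a higher r with Col6a2.

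Col4a1 and Col4a2 likewise gave r = 0.91 (exact permutation p = 0.00165, adjusted 0.00275; n = 9) and rho = 0.88 (p = 0.00308, adjusted 0.00384), with 0.92 after removal of PBS 2 and IL11 2 and 0.88 within groups, and 0.227% of probes had a higher r with Col4a1. The type I pair did not follow this. Col1a1 and Col1a2 gave r = 0.02 (exact permutation p = 0.955; n = 9) and rho = 0.03 (p = 0.948), and -0.47 after removal of IL11 1 and IL11 2, and 46.4% of probes had a higher r with Col1a1. The Col1a2 probe was dim, at 5.49 to 6.29, where the lowest detected level on the PBS arrays averaged 5.14. Its r therefore says little about how the type I chains vary. All tests were two-sided and adjusted over the 5 pairs. Their permutations ran over all 9 arrays without regard to group, so differences between groups also enter these p-values. The r within groups was given no p. The values of a pair share the array and its normalization, and cell content as given above.

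**Figure D5:**
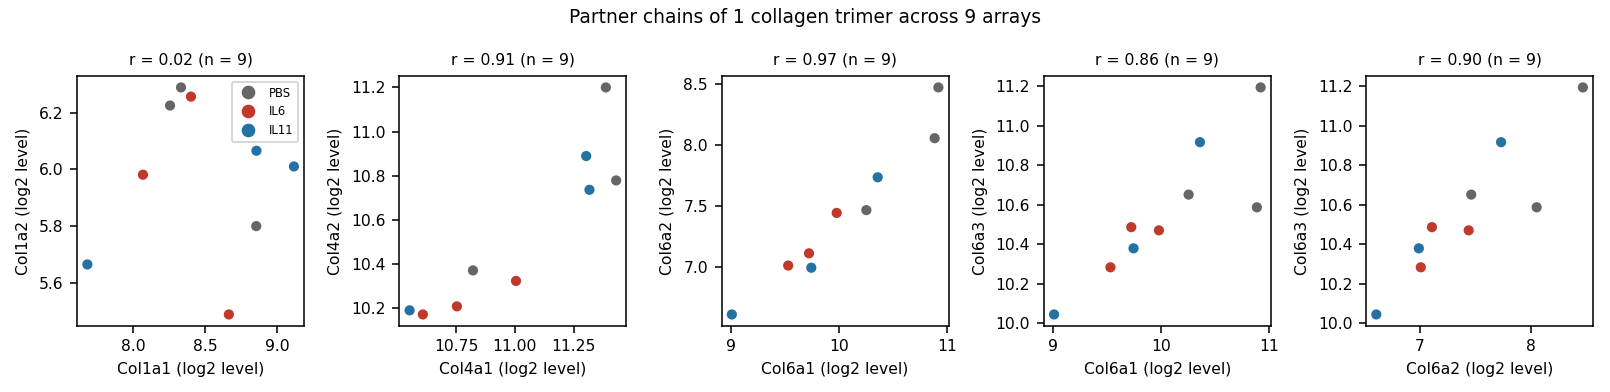
Log2 levels of 5 pairs of partner chains across the 9 arrays (points, coloured by group), with Pearson r above each panel. Points of the type VI pairs (0.97, 0.86 and 0.90) and of the type IV pair (0.91) rise together, and those of the type I pair (0.02) do not. Col1a2 is the dimmest of these chains, near background.

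Of the enzymes that fold and modify procollagen, 16 genes were measured by 23 probes, of which 1 rose with IL6, 0 fell and 22 did not pass. With IL11 0 of 23 passed. Of all probes, 0.264% passed with IL6 and 0.0845% with IL11. An unadjusted p under 0.05 was reached by 5 probes with IL6, against 14.4% of all probes, and by 4 with IL11, against 13.4%, which is near the background. P4ha1, which encodes a catalytic subunit of the prolyl 4-hydroxylase that stabilises the triple helix, was the one that rose. Its probe 5870040 read 5.30, 4.90 and 5.20 with PBS, 6.55, 6.21 and 6.51 with IL6, and 6.14, 6.30 and 6.31 with IL11, so both cytokine groups lay clear of PBS on every array. The rise with IL6 was 1.29 ± 0.18 on the log2 scale (SE, n = 3; adjusted p = 0.0223), or 2.44-fold (95% interval 1.85 to 3.22), and with IL11 the difference was 1.11 ± 0.18 (adjusted p = 0.0673). The second P4ha1 probe, 5270195, was also above PBS on every cytokine array, with differences of means of 0.54 and 0.62, and did not pass (adjusted p = 0.265 and 0.262). Of all probes, 8.46% lay wholly above PBS with IL6 and 8.74% with IL11.

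P4ha1 was detected on 2 of 3 PBS arrays, which puts the denominator of its fold close to background. The rise passed in 3 of the 9 models without 1 array, and not with the authors' processed values (0.34, limma adjusted p = 0.0790). Their log base is not stated, so 0.34 cannot be set beside the log2 difference as a size. IL11 and IL6 did not differ in P4ha1 beyond their spread, at -0.18 (95% interval -0.57 to 0.22) for IL11 minus IL6. Its paralogue P4ha2 gave 0.29 and -0.02 with IL6 and 0.51 and 0.28 with IL11 by its 2 probes. The collagen chaperone gene Serpinh1, encoding HSP47, went the other way with IL6. Its probe 4850221 read 7.23, 7.81 and 7.52 with PBS, 6.79, 6.29 and 6.49 with IL6, and 7.65, 7.18 and 7.27 with IL11. The IL6 arrays lay below all others, with a difference of means from PBS of -1.0 ± 0.22 (SE, n = 3) that did not pass (adjusted p = 0.147), while IL11 gave -0.15. Against PBS alone, 8.32% of all probes had all IL6 arrays lower. The brighter Serpinh1 probe 730706 gave -0.54 and -0.07. Of 21 alternatives the first probe passed with IL6 in 1, without PBS 1, at -1.15 (adjusted p = 0.0350), where 740 of all probes passed. It gave -0.52 with median scaling, and the brighter probe -0.06, where the median of all probes with IL6 was 0.37. With the authors' processed values, of unstated log base, the first probe gave -0.45. Without PBS 2 and PBS 3 the brighter probe gave -0.09.

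Hspa5, a chaperone gene of the endoplasmic reticulum, lay 1.46 and 1.48 above PBS (adjusted p = 0.187 and 0.222). The lysyl hydroxylase gene Plod2 gave 0.51 and 0.81 by one probe and -0.54 and -0.44 by the other, and has no single direction here. Genes of procollagen export (20 probes of 12 genes) had medians of 0.00 and -0.08 with IL6 and IL11 and 0 called in either. The smallest p were those of the export receptor gene Mia2 (0.70, adjusted p = 0.186; its other 3 probes -0.29 to -0.03) and the export-factor regulator Creb3l2 (0.73, adjusted p = 0.202; 0.44 by its second probe) with IL6, and with IL11 those of the coat GTPase gene Sar1a (-0.53, adjusted p = 0.281) and Creb3l2 (0.43).

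Genes of procollagen processing, cross-linking and fibril assembly (29 probes of 17 genes) had medians of -0.33 and -0.19, with 0 called. This list shares Dpt, Dcn, Lum and Fn1 with the fibroblast markers. Dermatopontin (Dpt) lay -0.77 and the cross-linking enzyme gene Loxl1 -0.85 from PBS with IL6, both with all IL6 arrays below PBS (adjusted p = 0.290 and 0.295). Such a separation held for 8.32% of all probes, and both genes were named for their small p. With IL11 lumican (Lum, probe 6650021) lay -0.85 (adjusted p = 0.280; -1.31 by its second probe) and the propeptidase gene Adamts2 0.68 (adjusted p = 0.328), where its other 2 probes gave -0.31 and -0.52. The lysyl oxidase gene Lox lay -0.74 and -0.37, and the brightest Sparc probe, 5130148, -0.58 and -0.33, with its other 3 probes between -0.60 and 0.20. Fn1, encoding fibronectin, gave -0.30 and -0.45 by its brighter probe. Postn had no kept probe.

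Collagen receptors (20 probes of 11 genes) had medians of -0.00 and 0.16 and 0 called. Their smallest p were those of the syndecan gene Sdc1 (0.64, adjusted p = 0.272; 0.23 by its second probe) and the collagen-binding kinase gene Ddr1 (0.34; 0.71 by its second probe) with IL6, and of the integrin gene Itga11 (-0.97, adjusted p = 0.396) and Sdc1 (0.41) with IL11. Proteases that degrade collagen and their inhibitors (26 probes of 18 genes) had medians of -0.00 and 0.04 and 0 called. The membrane-type metalloproteinase gene Mmp15 read 11.07, 11.32 and 11.01 with PBS, 10.64, 10.51 and 10.52 with IL6, and 10.39, 10.68 and 10.39 with IL11. All cytokine arrays were below PBS, with differences of means of -0.58 ± 0.17 and -0.65 ± 0.17 (SE, n = 3; adjusted p = 0.221 and 0.231). Of all probes, 8.32% lay wholly below PBS with IL6 and 10% with IL11. With IL6 Mmp11 followed (-0.57), and with IL11 Mmp14 (-0.61, adjusted p = 0.310).

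Of the secreted metalloproteinases, Mmp3 probe 1510750 and Mmp13 probe 5690131 varied more between mice of 1 group than between group means. Mmp3, encoding stromelysin, read 9.95, 5.16 and 4.44 with PBS, 6.73, 4.93 and 7.30 with IL6, and 6.62, 7.32 and 11.19 with IL11 by probe 1510750. The collagenase gene Mmp13 read 12.44, 10.98 and 6.19 with PBS, 11.90, 8.59 and 12.005 with IL6, and 10.93, 11.34 and 13.21 with IL11 by probe 5690131. Both were highest on IL11 3 and second on PBS 1, and the groups overlapped. The 3 Mmp3 probes gave -0.80 to -0.20 with IL6 and 1.24 to 1.86 with IL11, and the 3 Mmp13 probes -0.44 to 0.96 and -0.36 to 1.96. The gelatinase gene Mmp9 gave 0.19 and 0.64, and Mmp2 -0.31 and -0.32. The inhibitor gene Timp1 gave 0.47 and 0.90 by one probe and 0.30 and 0.82 by the other (lowest adjusted p = 0.335).

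Basement membrane partners (19 probes of 13 genes) had medians of -0.20 and -0.09 with 0 called. Hspg2, encoding perlecan, gave -0.72 and -0.66 with IL6 by its 2 probes, and Lamb2 -0.54 with IL11. Other matrix proteins (25 probes of 16 genes) had medians of -0.40 and -0.32 with 0 called. Fbln1, Fbln2, Fbn1 and Mfap4 in this list are also among the kept fibroblast markers. The thrombospondin genes Thbs3 (-0.74 to -0.47 by 3 probes, lowest adjusted p = 0.248) and Thbs2 (-1.04, adjusted p = 0.272) had small p with IL6, and Spp1, encoding osteopontin, lay 3.03 ± 1.05 above PBS with IL11 (SE, n = 3; adjusted p = 0.302), where PBS 2 at 4.75 stood far below the other PBS arrays at 9.73 and 9.15. Genes of TGF-beta signalling, a main inducer of collagen transcription (28 probes of 16 genes), had medians of -0.00 and -0.11 with 0 called. Tgfb1 lay -0.44 and -0.57 (adjusted p = 0.384 and 0.333), and Ltbp4, encoding a latent TGF-beta binding protein, -0.93, -0.68 and 0.03 with IL6 and -0.78, -0.67 and -0.29 with IL11 by its 3 probes.

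As a reference for scale, of 12 probes of 10 STAT3 target genes 6 rose with IL6 (those of Bcl3, Bcl6, Icam1, Osmr, Pim3 and Socs3) and 2 with IL11 (Icam1 and Pim3), where 0.264% and 0.0845% of all probes passed in either direction. Their medians lay 1.72 and 1.42 above PBS, where the median collagen stood at -0.20 and -0.07.

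IL11 and IL6 were also compared with each other. In limma 0 of 35 collagen probes passed an adjusted p of 0.05, as did 0% of all probes, and 0 of 35 had an unadjusted p under 0.05, against 2.31% of all. No collagen probe had groups without overlap, against 10.4% of all probes in either direction. The median collagen lay 0.11 higher with IL11 than with IL6, beside -0.00 for all probes, and 27 of 35 were higher. With median scaling the collagen median was 0.03 beside -0.12, and 17 of 35 lay below 0. The highest differences were those of the Col8a1 probe 5490477, at 0.60 (95% interval -0.35 to 1.54), and of Col4a2, at 0.37 (-0.19 to 0.93), and the lowest was that of Col20a1, at -0.37 (-1.14 to 0.40). For Col6a1 probe 7210041 the difference was -0.04, with an interval of -0.78 to 0.70. Serpinh1 probe 4850221 was 0.85 ± 0.22 higher with IL11 (95% interval 0.36 to 1.34), which did not pass over all probes (adjusted p = 1.00).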

How the data were processed

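Bead arrays (Illumina MouseWG-6 v2.0) measured 45281 probes in 9 tumours. The deposited intensity of a probe is its average bead signal, exported by BeadStudio 3.4.0 with no normalization, per the file headers. Detection was deposited as a fraction that rose with the signal (Spearman rho at least 0.985 on each array), so they were read as 1 minus the detection p-value named in the headers. The authors' processed log2-like table, for which lumi and Partek are named per the submitters' processing notes, has no stated log base or transform. Its columns have a median of 7.30, and its 45281 rows were matched to probes by rank on all 9 arrays and served as an alternative.

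Signals were corrected and quantile normalized with neqc of limma 3.58.1 (R 4.3.3; negative controls inferred from detection, offset 16) and put on the log2 scale. The 18925 probes detected on at least 3 arrays entered 1 limma fit (lmFit, eBayes, two-sided, a mean per group), adjusted by Benjamini-Hochberg over all of them at 0.05. The fit was tested on simulated data. Symbols came from GRCm38.p6 RefSeq tables, matched by current symbol for 27400 probes and by an older one for 8300. For a probe detected on no array of a group, a fold was computed with that group raised to each array's lowest detected level. The other group was used as measured, so this fold is no strict bound.

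Members, gene lists and tests were chosen with earlier results of these data known. Full values were given for 16 major collagen genes, for the 5 largest differences of each contrast, and from each list for genes past the threshold or the 2 of smallest p plus a set of named genes. Alternatives covered background, normalization, filter, source of values, moderation, array weights, arrays in the model, a replicate block and leaving out arrays. Samples of a group are separate mice per the labels' protocols, and p-values measure the spread between them.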

Additional observations from a re-analysis of the deposited data

How the results depend on the processing

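Under 22 alternatives the number of collagen probes past the threshold stayed at 0 in every comparison, except without PBS replicate 1. There it was 1 with IL6 and 1 with IL11, in both cases Col3a1 probe 2230544, while 740 and 531 of all probes passed, so leaving out 1 array gave 0 to 1 in each of these comparisons and 0 between IL11 and IL6. The median collagen change moved to 0.14 with IL6 and 0.19 with IL11 under median scaling, where the medians of all probes were 0.37 and 0.26 and 1914 and 85 of all probes passed, against 50 and 16. With 1 array left out, the median was -0.27 to -0.08 with IL6, -0.16 to 0.10 with IL11 and -0.01 to 0.23 for IL11 minus IL6. It kept its sign in the other alternatives for IL6, and turned to 0.02 with IL11 without PBS 2 and PBS 3. Of 35 collagen probes, 10, 14 and 15 kept their sign in all alternatives of the 3 comparisons.

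Same-numbered arrays did not all deviate together (r -0.12 to 0.35), so the numbers were not taken to pair the mice. With the replicate block 0 collagen probes passed and the medians stayed at -0.20, -0.07 and 0.11, while the P4ha1 rise with IL6 was lost (adjusted p = 0.0667). The P4ha1 difference with IL11 passed with median scaling (adjusted p = 0.0291) and without PBS replicate 1 (0.0271). The model without PBS 3 and IL11 3 was chosen after seeing the data. The causes of these changes were not tested. With 3 arrays a group the median SE of a collagen difference was 0.28, which limits the precision of every value above.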
